A study of Mus musculus with 123 samples.

Results

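Of the 23337 gene symbols in a table of single cells from mouse hearts, 71 were chosen by their level at embryonic stage E12.5, which was above that at stage E9.5 and after birth. A gene was taken when its pooled counts at E12.5 came to 50 or more when scaled to the library total (CPM, the usual scaling to 1000000 counts), when it had 1 count or more in 25% or more of the E12.5 cells, and when its E12.5 level was 4-fold or more above both E9.5 and postnatal day 1 (P1). Fewer than 3 counts were read as 3 in these ratios, so that a gene without counts in a pool was held at the level of 3 counts. 3481 genes reached the level and the share of cells at E12.5, and the 71 were the 2.04% of them that also met both ratios. All cells came from hearts of mice labelled aMHC-GFP (αMHC-GFP), in which the promoter of Myh6, the gene of the alpha myosin heavy chain, drives GFP. They were sorted for GFP, so each group was meant to hold only cells in which this transgene was active. Single cells were captured on Fluidigm C1 chips and amplified with SMART-Seq chemistry. The E9.5 and E12.5 hearts were digested with collagenase and the P1 hearts with Liberase, so enzyme and birth cannot be told apart.

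The labels name a time point for each cell but no animal, litter or chip, so each time point was 1 sample, and a difference between time points had no replicate check and no test. Cell titles begin with different prefixes, called naming sets here. The rule used only set C and cells with 2000 or more genes, which left 20 cells at E12.5, with 14 from E9.5 and 41 of 52 from P1. Their totals differed, with medians of 415428 counts per cell (E9.5), 389394 (E12.5) and 149078 (P1). The other E9.5 cells (set N530, 28 cells) and E12.5 cells (set N523, 8 cells) were deeper, with medians of 3151950 and 4895290 counts, did not enter the rule, and served as the check. Intervals given with pooled levels and ratios are exact 95% intervals that cover counting error only, because these reads carry no molecular identifiers and because the spread between cells was far wider.

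Between E9.5 and E12.5 the mouse heart tube loops, its atria and ventricles take shape, and the ventricular wall thickens while its myocytes still divide. After birth most cardiomyocytes (CMs) stop dividing, and their sarcomere and metabolic genes take up more of the transcriptome. The genes active in between include regulators of left and right sidedness, of the sinus venosus and of the outflow tract.

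The cells were checked against 13 CM markers. In all 20 E12.5 cells of set C these markers summed to between 29975 and 86164 CPM. In 3 of the 14 E9.5 cells they summed to 137 to 578 CPM, and in 1 of the 41 P1 cells to 535 CPM, so these 4 cells carried little of the labelled cell type. 1 N530 cell stood at 3583 CPM. Without the 4 cells 89 genes met the rule, and 59 of the 71 were among them. Fibroblast and cushion markers summed to a median of 141 CPM and up to 2295 CPM in an E12.5 cell, 7 of 14 at 0 counts, against a median of 1132 CPM at E9.5 and 0 at P1. Smooth muscle and pericyte markers, of which Acta2, Tagln, Cnn1 and Des are also known from embryonic CMs, summed to medians of 3139 CPM at E12.5 (up to 10239), 3707 CPM at E9.5 and 1512 CPM at P1, with 6 of 11 markers at 0 at E12.5. The part of either list in the levels of the 71 genes was not tested. The summed markers of endothelial, erythroid, leukocyte, platelet, neural and epithelial cells had a median of 0 CPM over the E12.5 cells, and their highest values in 1 cell ran from 36.9 CPM for erythroid to 550.0 CPM for neural markers. Endothelial markers reached 116 CPM, with 15 of 20 markers, Pecam1 and Tie1 among them, at 0 counts.

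The levels that chose the 71 genes are a description. Their pooled E12.5 levels ran from 51.1 to 998 CPM with a median of 81.3 CPM, against a median of 114 CPM over the 3481 genes, and 67 of the 71 lay between 50 and 200 CPM. Per length, by the mean of the authors' TPM over the 20 cells, the highest were Ddx1 at 750.2, Tnnt1 at 286, Fam81a at 239, Cdkn2d at 226, Gucy1a3 at 195, Cdkn3 at 165, Hmgb2 at 154, Cxx1c at 149.8, Cmpk1 at 149 and 1500009L16Rik at 143 TPM. The ratio of E12.5 to the higher of the other time points had a median of 5.24, was under 5 for 31 genes and 8 or more for 14. E9.5 was the nearer of the other time points for 39 genes and P1 for 32. At E9.5 3 of the genes had no count, and at P1 8 had none. Of all 3481 genes 6.46% were 4-fold or more above E9.5 and 14.8% were 4-fold or more above P1. The list ends in a dense part of the distribution. Just inside the ratio of 4 stood Bivm at 4.02, Gaa at 4.03 and Gnao1 at 4.05, and just outside stood 0610007P08Rik at 3.97, Cd99l2 at 3.93 and Exoc6 at 3.93. Just above 50 CPM stood Mettl14 at 51.1 CPM, Bivm at 51.2 CPM and Zfp334 at 52.7 CPM, and just below it Phf10 at 49.4 CPM, Tmem138 at 49.2 CPM and Thsd7a at 48.8 CPM. A830080D01Rik, Ncaph and Ubxn7 were found in 25% of the cells, and Lrrtm4, Smoc2 and Rbm34, which met the other limits, in 20%.

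**Figure D1:**
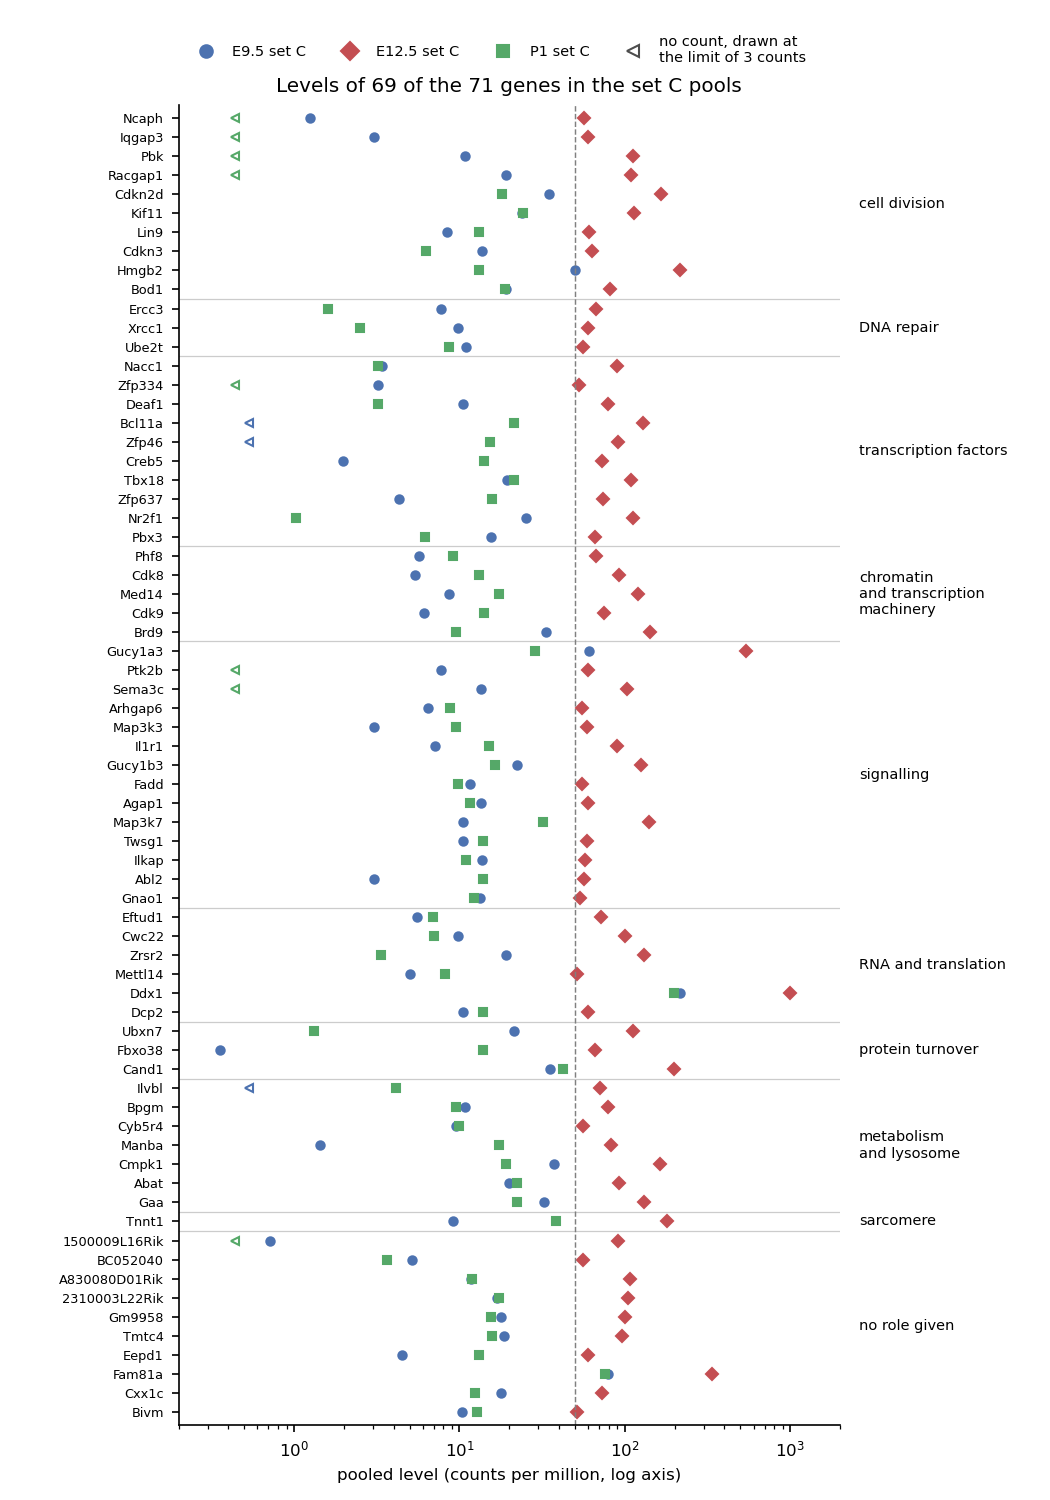
Pooled level in CPM (log axis) of 69 of the 71 genes in set C cells at E9.5 (circles), E12.5 (diamonds) and P1 (squares), grouped by role and ordered by ratio within a group; open triangles are genes without a count, drawn at the limit of 3 counts, and the dashed line marks 50 CPM. By the rule every diamond lies to the right of 50 CPM and of the other symbols, with 65 of these 69 between 50 and 200 CPM. CPM is not scaled by gene length, so the genes are to be compared along a row and not down the plot.

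The genes were unevenly spread over the E12.5 cells. A cell held 19 to 47 of the 71 genes with a median of 32, against 12 to 26 (median 19) at E9.5 and 2 to 20 (median 9) at P1. When each cell was thinned to 100000 counts, which left out 3 P1 cells, these medians were 30 (E12.5), 16 (E9.5) and 9 (P1). Together the genes took 0.797% of the E12.5 counts, against 0.119% (E9.5) and 0.109% (P1). The rule chose the genes as high in these E12.5 cells, so both orders follow from the choice and are a description. Over all genes the thinned cells held medians of 3646.5 genes (E12.5), 4155 (E9.5) and 2841.5 (P1). A member was found in a median of 40% of the E12.5 cells, against a median of 70% over the 3481 genes, and 5 in 80% or more (Ddx1, Fam81a, Tnnt1, Hmgb2 and Brd9).

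Single cells carried much of each level. The 1 cell with the most counts of a gene held a median of 41.3% of its E12.5 counts, and 25.3% over the 3481 genes, and for 20 of the 71 it held 50% or more. The extremes were Map3k7 with 93.1%, Ddx1 with 86.4% and A830080D01Rik with 78.6%. The E12.5 cell titled C88-no, which had the highest total of the pool (738496 counts), led for 20 genes, C36-no for 10 and C09-no for 8. In C31-no the 71 genes summed to 27961 CPM, of which all but 10946 CPM was Ddx1. When each gene was recomputed without its leading cell, 7 still met the whole rule (1500009L16Rik, Gucy1a3, Med14, Zrsr2, 2310003L22Rik and Racgap1 among them). Without that cell 66 of the 71 were 2-fold or more above both time points, 19 were 4-fold or more, 40 were under 50 CPM, 11 were in under 25% of the cells, and 2 (Ddx1 and Map3k7) were below E9.5 or P1. Leaving out 1 of the 20 E12.5 cells at a time gave 59 to 82 genes, among them 45 to 70 of the 71, with the fewest when C88-no was left out.

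**Figure D2:**
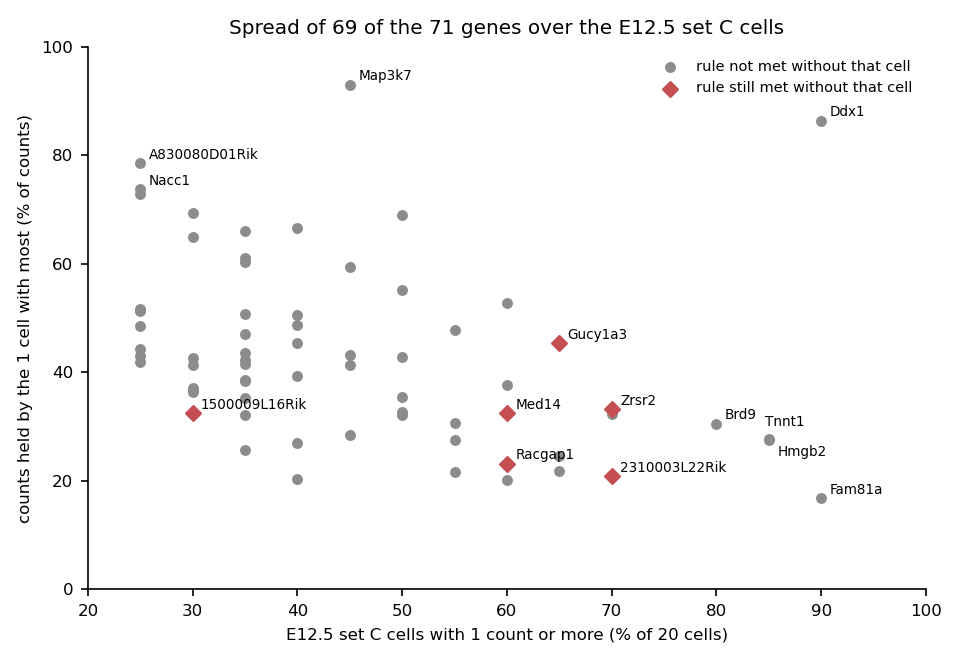
Share of the 20 E12.5 set C cells with 1 count or more of a gene (horizontal axis, %) against the share of its E12.5 counts held by the 1 cell with most (vertical axis, %), 1 point per gene for 69 of the 71. The 6 genes drawn as diamonds still met the rule without that cell; Map3k7 and Ddx1 stand at the top with 93.1% and 86.4%.

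Function classes were counted on symbol lists, beside the same count over all genes that could have met the rule. 36 of the 71 genes were in a class. The mitosis and cytokinesis list gave 5 of 59 (Ncaph, Iqgap3, Pbk, Racgap1 and Kif11), 8.47% against 2.04% of all genes, other transcription factors 4 of 51 (Tbx18, Nr2f1 and Pbx3 among them), growth factors, receptors and signalling 4 of 70 (Sema3c, Map3k3, Map3k7 and Gnao1), Zfp and Zkscan zinc finger proteins 3 of 52 (Zfp334, Zfp46 and Zfp637), chromatin 3 of 73 (Phf8, Hmgb2 and Brd9) and DNA repair 2 of 9 (Ercc3 and Xrcc1). RNA processing gave 4 of 135 (Cwc22, Mettl14, Ddx1 and Dcp2), predicted and clone-named transcripts 5 of 178, ubiquitin and proteasome 2 of 156 (Ube2t and Fbxo38), and 1 gene each came from the sarcomere (Tnnt1, of 53), apoptosis (Fadd, of 14), immune (Il1r1, of 10) and family-symbol (Fam81a, of 88) lists. The other lists gave none. Among these were the respiratory chain and mitochondria (0 of 177), translation and ribosome biogenesis (0 of 168), membrane traffic (0 of 106), cilia and centrosome (0 of 53), fatty acid oxidation and the citrate cycle (0 of 43), stress (0 of 42), glycolysis (0 of 34), ion channels (0 of 33), DNA replication (0 of 32), extracellular matrix (0 of 27) and solute carriers (0 of 26). The lists were matched to the symbols of the table, so a 0 does not show that none of the 71 has such a role. Eftud1 (Efl1 in RefSeq), of ribosome maturation, was on no list. 2310003L22Rik, which is Ndufaf5 in RefSeq, was counted only among the clone-named transcripts. At 2.04% a list of 43 genes or fewer would hold less than 1 on average. Over all 3481 genes the median log2 ratio was 0.24 to E9.5 and 0.61 to P1. The mitosis list stood at 0.81 and 6.41, and DNA replication at -0.29 and 2.61. Of the mitosis genes 48 of 59 were 4-fold or more above P1, against 14.8% of all 3481 genes. Above E9.5 it was 5 of 59 (8.47%), near the 6.46% of all genes, so at E9.5 the list was mostly within 4-fold of E12.5. TMM factors moved the medians of all genes by 0.15 (E9.5) and -0.25 (P1).

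10 of the 71 genes act in cell division. Ncaph is a subunit of condensin, Kif11 the kinesin that separates spindle poles, Racgap1 a part of the centralspindlin complex of the dividing midzone, Iqgap3 a scaffold of dividing cells, Pbk a mitotic kinase, Bod1 a factor of chromosome alignment, Lin9 a subunit of the complex that switches on mitotic genes, Hmgb2 a chromatin protein of dividing cells, and Cdkn3 and Cdkn2d restrain cyclin-dependent kinases. Promoters of such genes often carry the letters CCAAT and TTTGAA, which belong to the NF-Y site and to the cell cycle homology region, and the 250 bases before the annotated start of 4 of these genes are shown for that reason (RefSeq, GRCm38.p6). They lie at chr2:127133955-127134204 on the minus strand for Ncaph, chr15:99651657-99651906 on the minus strand for Racgap1, chr19:37376132-37376381 on the plus strand for Kif11 and chr8:57511593-57511842 on the plus strand for Hmgb2. Each is written 5′ to 3′ along its gene, and capitals mark CCAAT and TTTGAA on either strand (read as ATTGG and TTCAAA on the opposite one).
Ncaph: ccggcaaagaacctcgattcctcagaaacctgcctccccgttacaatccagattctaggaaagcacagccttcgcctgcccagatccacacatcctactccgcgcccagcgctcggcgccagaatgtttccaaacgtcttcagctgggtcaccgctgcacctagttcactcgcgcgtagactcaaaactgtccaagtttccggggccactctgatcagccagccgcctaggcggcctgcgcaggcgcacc
Racgap1: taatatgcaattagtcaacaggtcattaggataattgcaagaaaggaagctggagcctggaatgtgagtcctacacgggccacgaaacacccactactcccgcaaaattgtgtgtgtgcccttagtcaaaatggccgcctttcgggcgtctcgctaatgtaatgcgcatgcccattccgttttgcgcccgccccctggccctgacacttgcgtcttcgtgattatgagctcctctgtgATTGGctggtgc
Kif11: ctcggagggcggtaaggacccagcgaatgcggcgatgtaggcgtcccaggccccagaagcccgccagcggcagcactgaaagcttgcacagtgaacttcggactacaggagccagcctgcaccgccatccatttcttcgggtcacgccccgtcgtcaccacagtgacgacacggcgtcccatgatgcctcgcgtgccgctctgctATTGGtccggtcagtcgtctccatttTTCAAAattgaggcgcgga
Hmgb2: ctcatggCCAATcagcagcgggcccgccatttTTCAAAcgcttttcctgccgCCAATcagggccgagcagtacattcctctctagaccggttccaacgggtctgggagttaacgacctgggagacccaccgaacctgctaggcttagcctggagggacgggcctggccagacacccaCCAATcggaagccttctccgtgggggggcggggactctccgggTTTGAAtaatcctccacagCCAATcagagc

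In these windows TTTGAA was found in Kif11 and Hmgb2, and CCAAT in Racgap1, Kif11 and Hmgb2. The windows of Iqgap3 and Cdkn3 in the same table end at a later start site, so that their last 49 and 80 bases lie inside the gene as annotated, and they are counted but not shown. The window of Cdkn2d, also counted, has 212 of its 250 bases inside the gene. The window of Bod1 lies wholly before its start like the 4 shown, holds neither string, and is counted but not shown. Over the 8 cell division genes with an entry (Lin9 and Pbk had none here), TTTGAA was in 4 (Iqgap3 and Cdkn3 added) and CCAAT in 5 (Cdkn3 and Cdkn2d added), and over all 58 of the 71 genes with an entry they were in 12.1% and 39.7%. Of all 27025 genes with an entry 18.3% and 37.5% held these letters in at least 1 of their windows, and of all 32851 windows 16.0% and 33.8%. TTTCCCGC and AGATAA were also searched on both strands in the same windows, with TTTCCCGC in 5.17% of the 58 genes against 1.03% of all genes and AGATAA in 1.72% against 11.4%. A match is a string of letters and not a shown binding site.

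Ncaph and Iqgap3 stood at the head of the group by ratio. Ncaph measured 56.6 CPM at E12.5, with 1.25 at E9.5 and 0 at P1, in 5 of 20 E12.5 cells with a highest cell value of 632 CPM. Its ratio to E9.5 was 45.2 (counting interval 21.8 to 113). Its ratio to P1 was 129 with the 0 read as 3 counts, and the counting interval began at 104. Iqgap3 measured 59.5 CPM at E12.5, with 3.04 at E9.5 and 0 at P1, in 6 of 20 cells. Pbk measured 112 CPM at E12.5, with 10.7 at E9.5 and 0 at P1, in 5 of 20 cells with a highest value of 1065 CPM, 10.5-fold above E9.5 (8.06 to 13.8). Racgap1 was the broadest of the 5 mitosis genes, with 108 CPM at E12.5 (19.1 at E9.5 and 0 at P1), in 12 of 20 E12.5 cells, 3 of 14 E9.5 cells and 0 of 41 P1 cells, and cell values of 0 to 413 CPM around a median of 9.33 CPM at E12.5. The groups of cells overlapped, since 8 E12.5 cells were also at 0 and 3 E9.5 cells reached up to 207 CPM. Kif11 measured 113 CPM at E12.5, with 24 at E9.5 and 24.2 at P1, and its whole P1 level came from 1 of 41 cells, at 944 CPM. No count of Ncaph, Iqgap3, Pbk or Racgap1 was found in any P1 cell, which by counting error allows a pooled level of up to 0.541 CPM.

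Of the 5 mitosis genes at least 1 was found in 14 of the 20 E12.5 cells, 3 or more in 6 and all 5 in 1, and the 6 cells held 88.4% of their E12.5 counts. At E9.5 3 or more were found in 1 of 14 set C cells and in 6 of 28 N530 cells, the latter with 66.9% of the counts, and at P1 in 0 of 41. In the E12.5 cells of N523 it was 1 of 8, with 23.9% of the counts, against 88.4% in set C. Hmgb2 was widespread, with 215 CPM at E12.5 (49.7 at E9.5 and 13.1 at P1), in 17 of 20, 12 of 14 and 11 of 41 cells. Its medians over cells were 47 CPM (E12.5) and 40.3 CPM (E9.5), so the cells of the embryonic stages overlapped and the highest E12.5 cell stood at 1295 CPM. Cdkn2d measured 166 CPM at E12.5, with 34.9 at E9.5 and 18 at P1 in 13 of 20 E12.5 cells, and Cdkn3 63 CPM at E12.5, with 13.8 at E9.5 and 6.31 at P1 in 8. Lin9 and Bod1 measured 60.7 and 81.3 CPM at E12.5. The 3 genes of DNA repair were the crosslink repair enzyme gene Ube2t (55.6 CPM at E12.5, with 10.9 at E9.5 and 8.65 at P1), the single-strand break scaffold gene Xrcc1 (60 CPM at E12.5, with 9.84 at E9.5 and 2.49 at P1) and the helicase gene Ercc3 (66.6 CPM at E12.5, with 7.69 at E9.5 and 1.61 at P1), found in 7, 6 and 6 of 20 E12.5 cells.

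11 genes encode transcription factors. Tbx18, a factor of the sinus venosus and the epicardium, measured 109 CPM at E12.5, with 19.5 at E9.5 and 21.4 at P1 in 11 of 20 E12.5 cells. It is also on the epicardial list, as the 1 gene of that list that reached the level and the share of cells the rule asks for, and 6 of the 9 epicardial markers, Tcf21, Upk3b and Aldh1a2 among them, were at 0 in these cells. Wt1 and Krt19 had counts, and with Tbx18 included the 9 markers summed to between 0 and 595 CPM in an E12.5 cell (median 59.7), to at most 499 CPM at E9.5 and 372 CPM at P1 (medians 0), and their part in the Tbx18 level was not tested. Nr2f1, an atrial factor, measured 113 CPM at E12.5, with 25.2 at E9.5 and 1.03 at P1 in 7 of 20. These genes and Sema3c, a guidance ligand of the outflow tract, were each found both in cells with Sln and in cells with Myl2, read at 1 count or more. Other chamber markers were not used for this. Of the 11 Tbx18 cells 3 had a count of the atrial gene Sln and 7 one of the ventricular gene Myl2, of the 7 Nr2f1 cells 3 and 2, and of the 7 Sema3c cells 1 and 6. Over all 20 cells Sln was found in 4 and Myl2 in 14, so Nr2f1 was in 3 of the 4 Sln cells and in 2 of the 14 Myl2 cells.

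Bcl11a, a zinc finger repressor known from red cell and neuron development, had no count in any E9.5 cell of set C, 128 CPM at E12.5 (121 to 136) in 10 of 20 cells, and 21.3 CPM at P1 in 10 of 41. Its E12.5 level was 239-fold above E9.5, with no count read as 3, and 6.04-fold above P1. An annotated transcript on the opposite strand shares 190 bases with a Bcl11a exon, and reads of the pair cannot be told apart without strand. Tmtc4, Tbx18, Fadd and Gnao1 share exon bases with such transcripts as well. Zfp46 likewise had no count at E9.5 and measured 90.4 CPM at E12.5. Creb5 measured 72.8 CPM at E12.5, with 1.97 at E9.5 and 14.1 at P1. Nacc1 measured 89.1 CPM at E12.5, with 3.40 at E9.5 and 3.23 at P1, but 1 cell held 73.8% of its E12.5 counts. Pbx3 (66.5%) and Deaf1 (66%) were as uneven, with 66.2 and 78.9 CPM at E12.5, and Zfp334 and Zfp637 measured 52.7 and 73.4 CPM.

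15 genes act in signalling, and both subunits of the nitric oxide receptor were among them. Soluble guanylate cyclase is a dimer of an alpha and a beta subunit that makes cyclic GMP, and Gucy1a3 and Gucy1b3 (Gucy1a1 and Gucy1b1 in RefSeq) encode its main forms. Gucy1a3 measured 542 CPM at E12.5, with 60.5 at E9.5 and 28.4 at P1, in 13 of 20, 7 of 14 and 4 of 41 cells, with an E12.5 median of 132 CPM and a highest cell of 3409.9 CPM. Gucy1b3 measured 125 CPM at E12.5, with 22.2 at E9.5 and 16.4 at P1 in 11 of 20 E12.5 cells. 9 of the 20 E12.5 cells had counts of both, 4 of 14 at E9.5 and 3 of 41 at P1. C36-no was the leading cell for each subunit, with 45.4% and 47.9% of their counts. Without that cell Gucy1a3 was still 5.28-fold above E9.5, and Gucy1b3 3.17-fold.

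Sema3c measured 103 CPM at E12.5, with 13.4 at E9.5 and 0 at P1 in 7 of 20 E12.5 cells, with 60.3% of its counts in 1 cell. The kinase genes of the group included Ptk2b (59.6 CPM at E12.5), Abl2 (56.6 CPM), Map3k3 (59.4 CPM) and Map3k7 (141 CPM). Map3k7, the TGF-β-activated kinase, rested on C31-no, which stood at 2582 CPM, and the pool without it stood at 10.3 CPM. Il1r1, an interleukin receptor, measured 89.6 CPM at E12.5, with 7.15 at E9.5 and 15.1 at P1 in 6 of 20 cells. Fadd, the adaptor of death receptors, was spread over more cells, with 54.9 CPM at E12.5 (11.6 at E9.5 and 9.82 at P1) in 12 of 20 cells and 20.2% of its counts in the leading cell. The other members were the phosphatase gene Ilkap, the BMP modulator gene Twsg1, the G protein alpha subunit gene Gnao1 and the GTPase activator genes Arhgap6 and Agap1, at 53.5 to 59.9 CPM.

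6 genes act on RNA and translation and 5 on chromatin and transcription. Ddx1, an RNA helicase, measured 998 CPM at E12.5, with 217 at E9.5 and 198 at P1, and was found in 18 of 20, 13 of 14 and 28 of 41 cells. Its cell medians went the other way, 68.8 CPM (E12.5) and 94.6 CPM (E9.5), while C31-no alone stood at 17015 CPM, and without that cell its pooled level was 143 CPM. Zrsr2, of the spliceosome that removes minor introns, measured 129.7 CPM at E12.5, with 19.1 at E9.5 and 3.37 at P1 in 14 of 20 cells and still met the rule without its leading cell. Med14, a backbone subunit of the Mediator complex, did so as well, with 120.0 CPM at E12.5 (8.58 at E9.5 and 17.3 at P1) in 12 of 20 cells. Cwc22 of the spliceosome, Eftud1 of ribosome maturation, the decapping enzyme gene Dcp2 and the methyltransferase subunit gene Mettl14 measured 99.5, 71.8, 59.9 and 51.1 CPM at E12.5. The Mediator kinase gene Cdk8, the elongation kinase gene Cdk9, the histone demethylase gene Phf8 and the bromodomain gene Brd9 measured 91.8, 74.4, 66.8 and 142 CPM.

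Partners and family members of these proteins were picked after their values were seen. Of 29 that are not among the 71 genes, 6 were 4-fold or more above E9.5, 0 of them at 50 CPM or more, and 3 were at 0.25 times E9.5 or less. Of the 3481 genes, which all reached 50 CPM, 6.46% were 4-fold or more above E9.5. Kif23, which joins Racgap1 in centralspindlin, measured 56.2 CPM at E12.5 against 88.2 at E9.5. Mettl3, the catalytic partner of Mettl14, measured 10.3 against 26.5 CPM, Ccnc, the cyclin of Cdk8, 50.9 against 51.9 CPM, and Ccnt1, a cyclin of Cdk9, 48.7 against 95 CPM. The higher ones included the condensin subunit gene Ncapg, at 45.4 against 2.86 CPM, Tab1, a binding partner of Map3k7, at 29.2 against 1.25 CPM, Mybl2, a partner of Lin9, at 19.1 against 2.68 CPM, and the guanylate cyclase subunit gene Gucy1a2, at 18.3 against 3.04 CPM. In this order they were found in 40%, 15%, 5% and 20% of the E12.5 cells. Their log2 ratios of N523 to N530 were 2.55, -3.46, -8.92 and -7.28. Mybl2 and Gucy1a2 had no N523 count, which was read as 3. The condensin subunit genes Ncaph2 and Ncapd2 measured 125 against 33.1 CPM and 6.21 against 15.4 CPM.

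7 genes act in metabolism and the lysosome and 3 in protein turnover. Gaa and Manba encode lysosomal enzymes, acid alpha-glucosidase, which degrades glycogen, and beta-mannosidase. Gaa measured 131 CPM at E12.5, with 32.6 at E9.5 and 22.3 at P1 and Manba 82.9 CPM at E12.5, with 1.43 at E9.5 and 17.4 at P1, each in 10 of 20 E12.5 cells, with both in 4. Bpgm, which makes the bisphosphoglycerate that lowers the oxygen affinity of haemoglobin, measured 79.3 CPM at E12.5, with 10.7 at E9.5 and 9.53 at P1, while 12 of the 13 erythroid markers, the globins among them, were at 0 at E12.5. Ilvbl, with 70.8 CPM, had no count in the E9.5 cells of set C. The E9.5 cells of N530 pooled to 21.2 CPM, with counts in 6 of 28 cells. The nucleotide kinase gene Cmpk1, the GABA transaminase gene Abat and the reductase gene Cyb5r4 measured 164, 92.7 and 56 CPM. The cullin regulator gene Cand1, Ubxn7 and the F-box gene Fbxo38 measured 199, 112 and 65.8 CPM. For Fbxo38, with 2 counts at E9.5, the ratio from the counts themselves, not read as 3, was 184, with a counting interval of 50.7 to 1524.

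Tnnt1, slow skeletal troponin T, was the only sarcomere gene of the 71. It measured 179 CPM at E12.5, with 9.12 at E9.5 and 38.4 at P1, in 17 of 20, 6 of 14 and 16 of 41 cells, with cell values of 0 to 552 CPM around a median of 90 CPM at E12.5. In set C its highest E9.5 cell stood at 39.1 CPM, below the E12.5 median, whereas P1 cells reached 414 CPM and overlapped. In the deeper sets E9.5 and E12.5 cells overlapped, with N530 cells up to 441 CPM and a median of 3.72 CPM in N523. The cardiac isoform gene Tnnt2 measured 3023 CPM at E12.5, with 1449 at E9.5 and 8799.9 at P1, so its P1 level was above that at E12.5 where that of Tnnt1 was below. These are counts without length, and the levels of both genes are not compared.

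10 genes have no role that is stated here. Fam81a was found in as many cells as Ddx1, the most of the 71, 18 of 20 at E12.5, with 16.7% of its counts in the leading cell, the lowest share of all 71. It measured 335 CPM at E12.5, with 79.2 at E9.5 and 76.2 at P1 (interval 323 to 348 CPM at E12.5), with E12.5 cells between 0 and 1259 CPM around a median of 247 CPM. The E9.5 cells, with a median of 44.1 CPM and a highest value of 278 CPM, overlapped with them. 1500009L16Rik had the largest ratio, with 91.1 CPM at E12.5 (0.715 at E9.5 and 0 at P1) in 6 of 20 cells, 127-fold above E9.5 on 4 counts there (49.6 to 469). 2310003L22Rik measured 105 CPM at E12.5, with 16.8 at E9.5 and 17.3 at P1 in 14 of 20 cells. A830080D01Rik, BC052040 and Gm9958 measured 108, 55.7 and 100.2 CPM at E12.5, and Tmtc4, Eepd1 and Bivm 96.4, 59.9 and 51.2 CPM. Cxx1c measured 72.7 CPM at E12.5, 4.06-fold above E9.5, and reads can be split between it and its near-identical copies Cxx1a and Cxx1b, so its level is uncertain. 6 of the 71 genes are on the X chromosome, 8.45% against 4.22% of the 3481 genes.

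**Figure D3:**
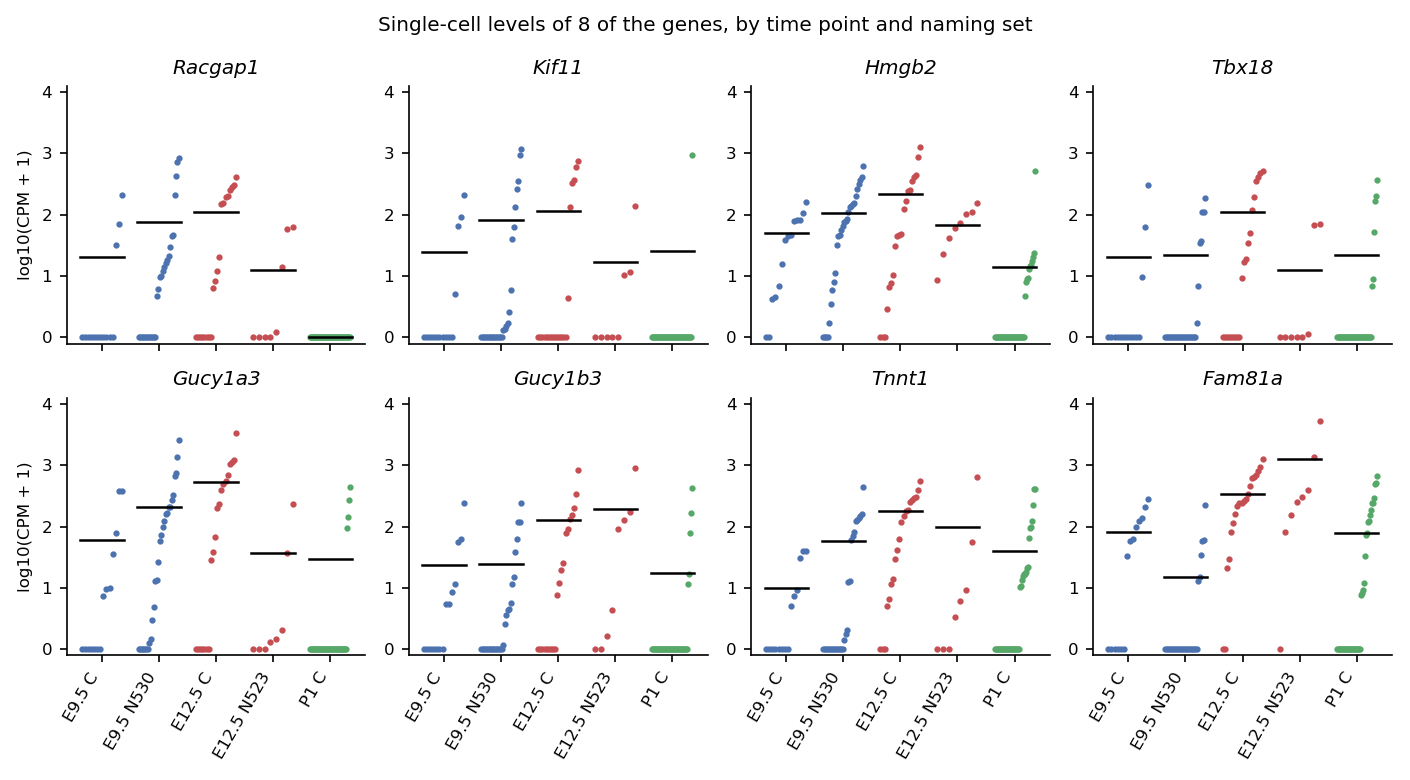
Level in each kept cell, as log10(CPM + 1), of 8 of the genes by time point and naming set, cells sorted within a set, with the pooled level as a black bar. P1 cells are nearly all at 0 for Racgap1 and Kif11, and the pooled level of the N523 cells of E12.5 lies above that of the N530 cells of E9.5 for Fam81a (1244 against 14.3 CPM) but not for Gucy1a3 (36.2 against 204 CPM).

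The rule did not use N523 (E12.5) and N530 (E9.5), so these cells give a reading of the step from E9.5 to E12.5 outside the rule. All N530 cells are E9.5 and all N523 cells are E12.5, so naming set and stage cannot be told apart in it. 13 of the 71 genes were 4-fold or more higher in N523 than in N530, 18.3% against 7.07% of the 3481 genes. At the same time 23 were at 0.25 times or less of N530, 32.4% against 19.5%, so both extremes held a larger share of the 71 than of all genes. 18 were 2-fold or more higher, 25.4% against 20.5% of all, and 33 were higher by any amount, 46.5% against 45.2% of all. The median log2 ratio was -0.82 for the 71 genes and -0.20 for the 3481. With each cell given the same weight it was -0.13 against -0.09 (cells thinned to 100000 counts) or -0.40 against -0.11 (mean of the cells' CPM). 67 of the 71 lay between 50 and 200 CPM in set C. Against the 2494 genes of that range, 12 of the 67 (17.9%) were 4-fold or more higher against 8.3%, 31 (46.3%) were higher against 39.8%, and 22 (32.8%) were at 0.25 times or less against 24.5%. Scaling by TMM factors moved the median of all 3481 genes in N523 to N530 by 0.66 on the log2 scale, to 0.46, and that of the 71 genes to -0.18. Relative to the median of all genes, the 71 stood at -0.62 without and -0.64 with these factors. N523 has only 8 cells, and the cell with most counts of a member held a median of 86.5% of its N523 counts. Without that cell 3 of the 71 were 4-fold or more higher than N530, and 1.49% of all genes were so with their own leading cell left out.

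**Figure D4:**
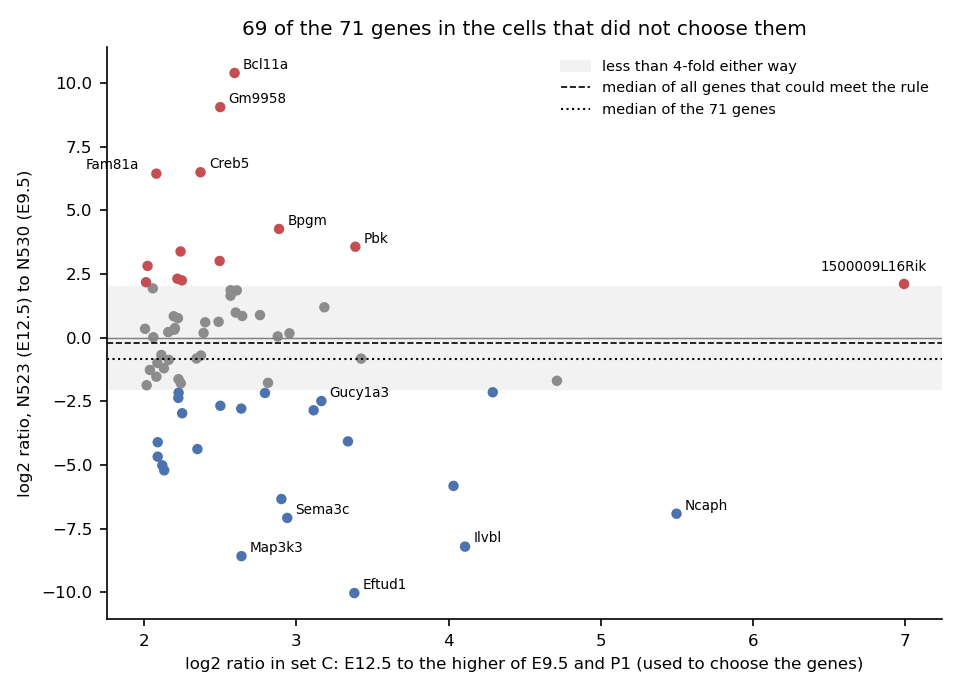
For 69 of the 71 genes, the log2 ratio that chose it in set C (horizontal axis) against the log2 ratio of N523 (E12.5) to N530 (E9.5) in cells the rule did not use (vertical axis). 13 points lie at 2 or above and 22 at -2 or below, outside the grey band; the dotted line is the median of the 71 genes (-0.82) and the dashed line that of all 3481 (-0.20).

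The 13 genes that were 4-fold or more higher in N523 than in N530 were Bcl11a, Gm9958, Creb5, Fam81a, Bpgm, Pbk, Fadd, Gucy1b3, Cxx1c, Lin9, Manba, Gaa and 1500009L16Rik. Fam81a had the most counts behind it, 14.3 CPM in N530 and 1244 CPM in N523, a ratio of 87.1 (82.5 to 92), in 7 of 8 N523 cells and 6 of 28 N530 cells. Its N523 cells ran from 0 to 5360.3 CPM around a median of 277 CPM, and the highest N530 cell stood at 225 CPM. Bcl11a again was almost without counts at E9.5, with 3 counts in 28 N530 cells, and measured 42.4 CPM in N523, in 4 of 8 cells, a ratio of 1350.2 (461 to 6554). Gm9958 had no count in N530 and 16.8 CPM in 1 N523 cell, and Creb5 measured 0.230 CPM in N530 and 20.9 CPM in N523, in 2 of 8 and 1 of 28 cells. Pbk measured 13.2 CPM in N530 and 157 CPM in N523, in 3 of 8 and 6 of 28 cells. Bpgm measured 6.42 CPM in N530 and 124 CPM in N523, Gucy1b3 23.6 CPM in N530 and 191 CPM in N523 and Fadd 7.96 CPM in N530 and 83.3 CPM in N523. The lysosomal pair went the same way, with Gaa at 76.1 CPM in N530 and 345 CPM in N523 and Manba at 8.79 CPM in N530 and 41.8 CPM in N523.

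7 of the 10 cell division genes were lower in N523 than in N530, 5 of them at 0.25 times N530 or less, where 45.2% of all 3481 genes were higher in N523 and 19.5% were at 0.25 times or less. With 10 genes in a group whose roles were assigned after the genes were seen, nothing particular to it is read from these counts. Racgap1 measured 74.7 CPM in N530 and 11.7 CPM in N523, Kif11 82 CPM in N530 and 15.9 CPM in N523, Cdkn2d 103 CPM in N530 and 13.1 CPM in N523, Iqgap3 13.1 CPM in N530 and 2.97 CPM in N523 and Ncaph 17.3 CPM in N530 and 0.144 CPM in N523, while the log2 ratio of N523 to N530 was -0.68 for Hmgb2 and -0.99 for Bod1. For these 7 the order of E9.5 and E12.5 was thus opposite in set C and in the deeper sets, except that Bod1 measured 25 CPM in both N530 and N523 with cells thinned to 100000 counts. N523 had counts of Racgap1, Iqgap3 and Ncaph, which had none at P1, but its pool held 41803388 counts against 6819717 at P1. Ncaph had 6 N523 counts, and its 0.144 CPM was under the 0.440 CPM that 3 counts stand for at P1. Iqgap3 was found in 1 of 8 N523 cells. Of the 11 transcription factors 3 were higher in N523 (Bcl11a, Creb5 and Zfp46), against the 45.2% of all genes, and the patterning genes were not, with Tbx18 at 20.7 CPM in N530 and 11.7 CPM in N523, Nr2f1 at 12.6 CPM in N530 and 6.89 CPM in N523 and Sema3c at 19.5 CPM in N530 and 0.144 CPM in N523. With cells thinned to 100000 counts Tbx18 and Nr2f1 were in the other order, at 17.1 and 10.7 CPM in N530 and 23.8 and 13.8 CPM in N523. The subunits of soluble guanylate cyclase parted, since Gucy1a3 measured 204 CPM in N530 and 36.2 CPM in N523. The genes lowest in N523 were Eftud1, Map3k3 and Ilvbl, which had no N523 count. With that read as 3 counts they were 1049, 384 and 296 times lower than in N530. Sema3c was among the next lowest. Tnnt1 measured 56.8 CPM in N530 and 96.7 CPM in N523, a ratio of 1.70 (1.63 to 1.77), with 92.4% of the N523 counts in 1 cell.

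Against P1 the check has no separate cells of good depth, because all P1 cells carry set C titles. N523 was 4-fold or more above the P1 pool for 24 of the 71 genes, and the share under this ratio was 66.2% of the 71 against 87.5% of the 3481. The rule chose the 71 genes as low in this same P1 pool, so the comparison is not independent of the choice and the shares are given as a description. N523 was 4-fold or more above both N530 and P1 for 9 (12.7% against 2.76% of all), a count that rests in part on the same P1 values. These were 1500009L16Rik, Pbk, Bpgm, Gucy1b3, Fadd, Lin9, Fam81a, Cxx1c and Gaa, and each also reached 50 CPM and 25% of the cells in N523. The 11 P1 cells with under 2000 genes had been left out by the rule. E12.5 set C was 4-fold or more above them for 59 of the 71 genes, 83.1% against 38.7% of all. The E12.5 level in this ratio is the one that chose the genes, and 40 of the 71 had no count in these cells. In their 714929 counts a count of 0 was read as 3, which is 4.20 CPM, and by counting error allows up to 5.16 CPM. The 1 further E12.5 cell (title prefix E12-5b) held 23 of the 71 genes (32.4%), fewer than its share of all 3481 (64.3%), and 13 at 50 CPM or more, with Sema3c at 622, Fam81a at 475 and Med14 at 407 CPM among the highest.

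When all naming sets of a time point were pooled, so that the deeper N530 and N523 cells outweighed set C, 179 genes met the same rule and 9 of the 71 were among them, the same 9 genes. Without the cells whose titles end in "no", an ending the labels do not explain and that 9 of the 20 E12.5 cells carry, 121 genes met it and 31 of the 71 were among them. The leading cell of a gene carried that ending for 54 of the 71. The same share over all genes was not computed, and C88-no, the cell with the highest total, is among these cells, so nothing particular to the 71 is read from it. By the same limits 175 of 3592 genes (4.87%) peaked at E9.5 and 134 of 2823 (4.75%) at P1 in set C, both more than the 2.04% at E12.5.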

How the data were processed

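Single-cell RNA sequencing of sorted cells from aMHC-GFP mouse hearts was deposited by the authors as 1 table of counts and 1 table of TPM, with a column per cell. Per the labels and the study's methods, cDNA made with SMART-Seq V4 and Nextera XT was sequenced, reads were aligned with OLego to mm10 (GRCm38), and the authors counted reads per gene with featureCounts, with no molecular identifiers and no stated use of strand. The deposited TPM values sum to 1000000 per cell and are scaled by gene length. Here the counts of all cells of 1 naming set and stage were added up and divided by the summed totals, with a floor of 3 counts in ratios. Deposited totals per cell ran from 4903 to 7711355 counts. TMM factors came from edgeR 4.0.16 in R 4.3.3, the rest from Python 3.11.15, pandas 2.3.3, NumPy 2.4.6 and SciPy 1.17.1. The script was tested on simulated data.

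The genes and lists were chosen with earlier results of these data known, and the roles by which the 71 genes are grouped were assigned after the genes were seen. Genes named were the 15 with the largest ratio, the 10 highest by mean TPM, the 5 highest and 5 lowest in N523 to N530, the 3 on each side of each limit, the members of each function class, and the 3 most held by 1 cell, and others were picked after their values were seen. 2 of the 71 genes are counted throughout but not reported here by name or drawn. Each time point is 1 sample of unnamed animals, so no test was run across cells. No pair of cells had identical counts (0 columns), and 0 columns of the tables belonged to no sample. Promoters and gene positions came from RefSeq tables of GRCm38.p6, in which all 71 genes were matched by symbol and 58 had a promoter entry, and exon overlaps from GENCODE.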

Additional observations from a re-analysis of the deposited data

Results flagged for a closer look

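For 23 of the 71 genes the step from E9.5 to E12.5 had opposite directions in set C and in the deeper naming sets: E12.5 was 4-fold or more above E9.5 in set C, and N523 (E12.5) was at 0.25 times N530 (E9.5) or less. These differences were not tested, since each side was 1 pool of cells, and 19.5% of all 3481 genes had as low a ratio of N523 to N530. Values are given for 22 of the 23, as log2 ratios of N523 to N530. Eftud1 (-10.04), Map3k3 (-8.58) and Ilvbl (-8.21) had no count in N523, which was read as 3 counts, so their values are set by that floor. Among genes of cell division and DNA repair the ratios were Ncaph (-6.92), Ube2t (-4.38), Cdkn2d (-2.97), Ercc3 (-2.85), Racgap1 (-2.68), Kif11 (-2.37) and Iqgap3 (-2.15). Among transcription factors and chromatin they were Deaf1 (-6.34), Zfp334 (-5.82), Brd9 (-4.68), Pbx3 (-4.11) and Med14 (-2.17). Among genes of RNA, protein turnover, metabolism and signalling they were Sema3c (-7.08), Cmpk1 (-5.21), Dcp2 (-5.02), Cwc22 (-4.08), Mettl14 (-2.79), Gucy1a3 (-2.49) and Cand1 (-2.16). N523 has 8 cells and N530 28, N523 cells were deeper, and the part of either in these values was not tested. Naming set and stage cannot be told apart between N523 and N530.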

How the results depend on the processing

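Of 72 recomputed values 50 stayed within 1.5 times a count or the stated spread, 22 moved further, and no median of the 71 genes turned its sign, while that of all 3481 in N523 to N530 went from -0.20 to 0.46 with TMM factors. The 71 genes became 29 by the mean of the deposited TPM (17 of the 71 among them), 7 when each gene lost its leading cell, 121 without titles ending in "no" and 179 with all naming sets pooled. With other limits they became 146 at 20 CPM, 26 at 100 CPM, 26 at 50% of cells, 342 at 2-fold and 14 at 8-fold. At 2-fold 632 genes peaked at E9.5 and 407 at P1. The mean of the cells' CPM gave 62 genes, TMM factors 58 and thinning 63, and 13 of the 71 met the rule under all 4 other scalings. The share of E12.5 counts taken by the 71 genes was 0.746% by mean CPM, 0.758% with TMM factors, 0.753% thinned, 0.516% in TPM, 0.458% without leading cells and 0.568% without titles ending in "no". With all cells 33 genes were above N530 in N523 by any amount. Without leading cells, 3 genes were 4-fold or more higher in N523 than N530, the median log2 ratio was -3.67 (-1.44 over all genes), and 7 were 4-fold or more above P1. With thinning, 14 genes were 4-fold or more above the P1 cells with under 2000 genes, of which 10 of 11 were too shallow and left out. The causes were not tested, beyond the fewer cells or genes each setting leaves. Leaving out 1 cell at a time gave 59 to 82 genes (E12.5) and 67 to 84 (E9.5), and for N523 11 to 15 genes above N530, 20 to 26 above P1 and medians of -1.13 to -0.57. The setting without cells low in CM markers was chosen after seeing the data. No paired analysis was possible because the labels give cells no replicate numbers that tie time points together. 3 counts stand for 0.537 CPM in the E9.5 pool of set C and 0.440 CPM in that of P1, and for 4.20 CPM in the P1 cells with under 2000 genes.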
